A study of Mus musculus with 117 samples.

Results

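Gpt2 and 9 further genes of the amino acid stress response were followed through 3 exocrine glands of NOD-scid and B6-scid mice. The genes were chosen by symbol (Gpt2, Asns, Psat1, Phgdh, Atf4, Ddit3, Trib3, Nupr1, Chac1 and Sesn2), with earlier results of these arrays known, among them the change between 9 and 15 weeks in submandibular gland. The arrays hold 17 probe sets annotated to 1 of these symbols alone, of 36701 that are not controls. Asns had 5 of them, Psat1 had 4 and the other genes had 1 each, and all 17 were looked at.

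When amino acids run short or unfolded proteins build up, kinases phosphorylate the initiation factor eIF2, general translation falls and the transcription factor ATF4 is made in larger amounts. ATF4 and its partners of the C/EBP family then raise genes that make, import or load amino acids, together with genes that restrain the response. Secretory acinar cells of pancreas, salivary and lacrimal glands make large amounts of protein, and loss of the eIF2 kinase PERK damages the exocrine pancreas of mice.

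All mice were female. The strain on the diabetes-prone NOD background, called NOD-scid here, was NOD.CB17-Prkdc scid/J, and its comparison strain, called B6-scid, was B6.CB17-Prkdc scid/SzJ. Both carry the Prkdc scid mutation, which leaves mice without mature T and B cells. In either strain the groups were pancreas of 6 weeks, submandibular gland of 15 weeks, the same gland of 9 weeks, and lacrimal gland of 15 weeks, 8 in all. Each group had 5 mice except NOD-scid lacrimal gland with 4, which made 39 gland samples, each read on the Affymetrix array designs A, B and C. Levels are scaled signals (the trimmed mean of an array is 500), given as mean ± SD over mice. A difference is given as the log2 fold change after 32 was added to every signal, beside its standard error (SE). Adjusted p-values come from limma with Benjamini-Hochberg adjustment over all probe sets tested, and a difference was called when the adjusted p was under 0.05.

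Markers of the labelled glands were checked first. The summed signal of 9 pancreatic acinar genes was 1417640 to 1758480 in NOD-scid pancreas and 1520440 to 1925660 in B6-scid pancreas, and all 9 reached a signal of 100 there. Lcn11, a lipocalin, had 215478 ± 25693 in NOD-scid lacrimal gland and 126650 ± 10277 in B6-scid lacrimal gland, and its highest value in another gland was 2999.97. The other 2 measured markers listed for lacrimal gland, Mup5 and Car6, were called lower there than in submandibular gland, so the lacrimal label rests on Lcn11 alone of the 3. Submandibular glands of 9 weeks held higher acinar sums than those of 15 weeks, and 1 NOD-scid gland of 9 weeks (replicate 1) reached 179847. B6-scid lacrimal samples 2 and 3 had 519804 and 600636 for the sum of 4 parotid transcripts, while the other B6-scid lacrimal samples had 40064 to 49133. The 3' to 5' signal ratio of Actb, which grows when RNA is degraded, averaged 1.70 and 2.17 in NOD-scid submandibular gland of 15 and 9 weeks, and 1.68 and 2.45 in B6-scid gland of 15 and 9 weeks. It was highest, at 4.34, in B6-scid submandibular sample 4 of 9 weeks. In whole glands, fewer cells of a type and less RNA per cell cannot be told apart.

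ATF4 with a C/EBP partner binds composite elements with the core TGATGNAA, and promoter windows of the 10 genes were read for it on both strands. The windows run from 250 bases before to 30 bases from the transcription start on, from RefSeq's table of assembly GRCm38.p6, which holds all 10 genes with 11 starts. The core was found in 4 genes, once each, and in 3.81% of all 32851 promoter windows of this length in the table. These 4 windows are shown because they held the core, and that of Gpt2 because it is the gene described first. The matching letters are in capitals, and on the opposite strand the core reads TTNCATCA.
Chac1, chr2:119350992-119351271, plus strand: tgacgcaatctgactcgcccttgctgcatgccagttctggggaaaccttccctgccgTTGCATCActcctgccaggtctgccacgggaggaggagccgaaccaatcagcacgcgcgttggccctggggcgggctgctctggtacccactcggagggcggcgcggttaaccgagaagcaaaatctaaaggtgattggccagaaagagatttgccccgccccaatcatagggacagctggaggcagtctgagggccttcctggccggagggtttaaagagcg
Asns, chr6:7693180-7693459, minus strand: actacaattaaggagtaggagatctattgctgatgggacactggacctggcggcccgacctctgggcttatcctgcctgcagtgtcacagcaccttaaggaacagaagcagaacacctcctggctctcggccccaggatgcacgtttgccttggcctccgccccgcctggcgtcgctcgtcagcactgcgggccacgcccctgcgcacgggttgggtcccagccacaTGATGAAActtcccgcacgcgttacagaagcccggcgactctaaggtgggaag
Trib3, chr2:152344031-152344310, minus strand: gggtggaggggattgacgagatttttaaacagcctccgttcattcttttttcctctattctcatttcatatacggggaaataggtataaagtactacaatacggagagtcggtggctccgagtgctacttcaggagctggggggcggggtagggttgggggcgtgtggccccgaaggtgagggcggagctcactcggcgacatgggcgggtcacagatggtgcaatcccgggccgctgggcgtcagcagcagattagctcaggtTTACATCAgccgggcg
Nupr1, chr7:126625441-126625720, minus strand: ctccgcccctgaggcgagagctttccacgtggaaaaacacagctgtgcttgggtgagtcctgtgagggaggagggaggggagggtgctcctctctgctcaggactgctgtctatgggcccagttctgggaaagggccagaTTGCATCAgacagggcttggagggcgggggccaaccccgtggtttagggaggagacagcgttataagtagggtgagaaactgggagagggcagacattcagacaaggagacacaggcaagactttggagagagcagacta
Gpt2, chr8:85492326-85492605, plus strand: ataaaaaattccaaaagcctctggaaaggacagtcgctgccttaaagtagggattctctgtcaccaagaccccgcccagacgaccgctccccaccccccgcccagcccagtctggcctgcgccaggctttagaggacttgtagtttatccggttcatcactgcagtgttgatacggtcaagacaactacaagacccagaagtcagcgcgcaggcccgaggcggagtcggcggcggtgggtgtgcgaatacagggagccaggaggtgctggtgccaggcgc
The match lay at bases -193 to -186 in Chac1, -110 to -103 in Nupr1 and 15 to 22 in Trib3, each on the opposite strand, where base 1 is the start. In Asns it lay on the gene's own strand at bases -23 to -16. The letters were not found in the windows of Gpt2, Psat1, Phgdh, Sesn2, Atf4 and Ddit3. A match of letters was not tested for binding.

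Gpt2 encodes the mitochondrial alanine aminotransferase, which makes alanine and 2-oxoglutarate from pyruvate and glutamate, and the reverse. Its probe set (113915_at, design B) read 3978, 5445, 5094, 4223 and 3120 in NOD-scid submandibular glands of 15 weeks. At 9 weeks the NOD-scid signals were 3405, 3624, 3405, 1511 and 2433. In B6-scid submandibular glands the signals were 2335, 3115, 4706, 3667 and 4633 at 15 weeks, against 955, 991, 505, 205 and 589 at 9 weeks. All 5 B6-scid glands of 9 weeks were below every other submandibular gland, and the remaining 3 submandibular groups overlapped each other.

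Between 9 and 15 weeks Gpt2 differed by 0.64 (SE 0.36) in NOD-scid gland, with overlap, and by 2.58 (SE 0.36) in B6-scid gland, a fold of 5.98, without overlap. The difference between these changes was -1.94 (SE 0.50). The strain difference was 0.26 (SE 0.36) at 15 weeks and 2.20 (SE 0.36) at 9 weeks. These values carry no p, since the genes were chosen with results of the age change known. Without NOD-scid sample 1 and B6-scid sample 4 of 9 weeks, which had the highest acinar sum and the highest Actb ratio of the submandibular samples, the NOD-scid change was 0.72 and the B6-scid change 2.24. With the Actb ratio in the fit the NOD-scid change was 0.20 and the B6-scid change 1.99. Age and any difference in handling between the age groups cannot be told apart.

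**Figure D1:**
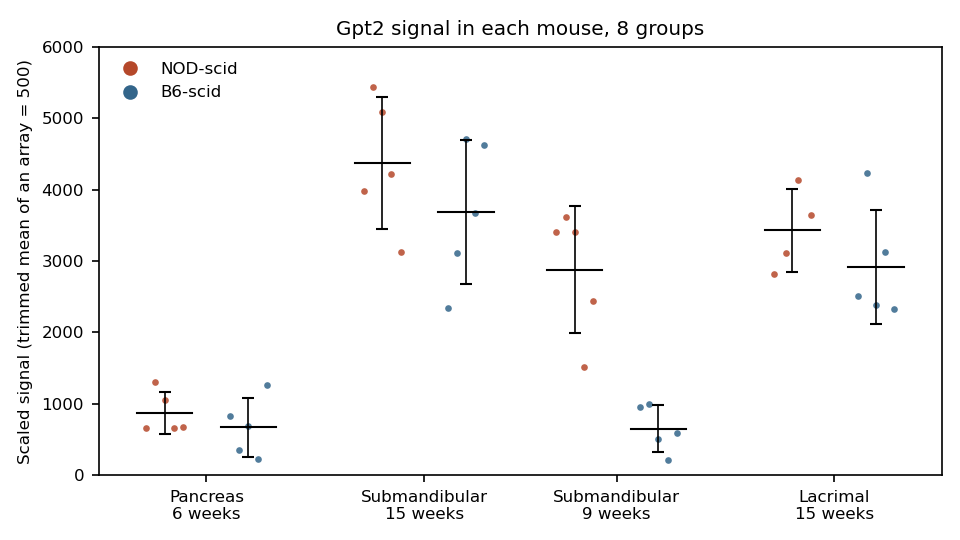
Gpt2 scaled signal (vertical axis, from 0) in each mouse of the 8 groups (horizontal axis), with NOD-scid left of B6-scid. Points are mice, lines are group means and bars are the SD. The B6-scid submandibular glands of 9 weeks lie between 205 and 991, all below the other submandibular glands.

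Across all groups, the Gpt2 means fell in 2 tiers. NOD-scid submandibular gland of 15 weeks was highest (4372 ± 924), followed by B6-scid submandibular gland of 15 weeks (3691 ± 1011), NOD-scid lacrimal gland (3428 ± 580), B6-scid lacrimal gland (2916 ± 800) and NOD-scid submandibular gland of 9 weeks (2876 ± 892). NOD-scid pancreas (873 ± 297), B6-scid pancreas (669 ± 414) and B6-scid submandibular gland of 9 weeks (649 ± 329) followed. Neighbours in this order overlapped, except NOD-scid submandibular gland of 9 weeks and NOD-scid pancreas.

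Averaged over both ages, Gpt2 was 1.23 higher in NOD-scid than in B6-scid submandibular gland (SE 0.25, fold 2.35, limma, adjusted p = 0.00833). The low B6-scid group of 9 weeks carries this average and may have been known when Gpt2 was chosen, so the adjusted p is a description and supports nothing. Gpt2 was the only member called in this comparison, 1 of 17 probe sets, where 2.01% of all 32136 probe sets tested were called (0.859% as higher, 1.15% as lower). Without the NOD-scid and the B6-scid sample named above it was 1.03 (adjusted p = 0.0187). Granular duct genes of submandibular gland also differed between the strains: of 5 tested, Egf, Klk1b9 and Klk1b11 were higher in NOD-scid gland, and the summed signal was 219967 to 278414 and 282995 to 431288 in NOD-scid gland of 15 and 9 weeks, against 160258 to 239615 and 209132 to 351754 in B6-scid gland of 15 and 9 weeks. Of the other marker lists, Bpifa2 and Amy1 (2 of 4 parotid markers), Cd74 (1 of 8 of macrophages and dendritic cells) and Bpifb2 (1 of 3 sublingual) were lower in NOD-scid gland, and Lpl (1 of 5 of adipocytes) was higher. The part of these markers in the Gpt2 difference was not tested. Between pancreas and submandibular gland the Gpt2 difference was -1.65 (SE 0.22, adjusted p = 8.2e-08), with the lower level in pancreas. In lacrimal gland it read 2822, 3114, 4132 and 3643 in NOD-scid mice, against 2514, 4231, 2385, 3121 and 2328 in B6-scid mice, and the strains overlapped. In pancreas it read 658, 1310, 1054, 666 and 675 in NOD-scid mice, against 831, 348, 682, 221 and 1264 in B6-scid mice, again with overlap.

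Gpt, the cytosolic alanine aminotransferase, was distributed otherwise. Its probe set is of a kind that can read related sequences. It had 12276 ± 1839 in NOD-scid pancreas and 8968 ± 1261 in B6-scid pancreas, the highest of the groups, whereas Gpt2 was low there. In B6-scid submandibular gland Gpt had 2153 ± 292 at 15 weeks against 1270 ± 284 at 9 weeks, a change of 0.77 (SE 0.29) without overlap. In NOD-scid gland it had 2301 ± 585 at 15 weeks against 1467 ± 449 at 9 weeks, a change of 0.65 (SE 0.29) with overlap.

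Over the 20 submandibular samples, the 8 genes whose log2 signals were most like those of Gpt2, of 14761 genes, were Elovl7, Pgp, Fndc3b, Ppp3r1, Mapk9, Stk39, Afg1l and Cd44. Pearson's r was 0.885 for Elovl7 and 0.838 for Cd44. When each group's mean was taken off first, the closest were Glyr1, Itgb2l, E2f4, Vps8, Sgsh, Ankle2, Dhodh and Dalrd3, with r from 0.875 for Glyr1 to 0.778 for Dalrd3. None of the first 8 was among the second. These r are descriptions over samples that share arrays and groups.

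Asns, asparagine synthetase, makes asparagine from aspartate with nitrogen from glutamine. Its most abundant probe set (95133_at) varied little, with group means from 12435 in B6-scid lacrimal gland to 19369 in NOD-scid submandibular gland of 15 weeks. In lacrimal gland it had 16818 ± 2302 in NOD-scid and 12435 ± 1148 in B6-scid mice, without overlap, yet the difference of 0.43 (SE 0.16) was not called (adjusted p = 0.274). The change between ages in submandibular gland was 0.16 (SE 0.23) in NOD-scid and 0.30 (SE 0.23) in B6-scid mice, with overlap in both. Between pancreas and submandibular gland it gave -0.23 (SE 0.12, adjusted p = 0.126), whereas 2 of its other 4 probe sets, both on design C, were called higher in pancreas, by 0.93 (SE 0.25) and 2.44 (SE 0.26).

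Phgdh and Psat1 catalyse consecutive steps of serine synthesis. Psat1 (96295_at) read 2790, 3617, 3339, 2830 and 1834 in NOD-scid submandibular glands of 15 weeks, against 1674, 1702, 3049, 1295 and 1711 at 9 weeks. In B6-scid glands it read 889, 4353, 3815, 2703 and 3498 at 15 weeks, against 757, 662, 2294, 871 and 1276 at 9 weeks. The ages overlapped in both strains, through NOD-scid sample 3 of 9 weeks and B6-scid sample 1 of 15 weeks. The change was 0.63 (SE 0.38) in NOD-scid and 1.33 (SE 0.38) in B6-scid gland.

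The other 3 Psat1 probe sets, on design B, ran from -0.90 to 0.76 in NOD-scid gland and from -1.05 to 0.74 in B6-scid gland for the same change, so they did not share 1 direction. Phgdh (162168_r_at) had 260 ± 73.2 in NOD-scid submandibular gland of 15 weeks and 399 ± 163 at 9 weeks. In B6-scid gland it had 256 ± 40.6 at 15 weeks and 208 ± 106 at 9 weeks, again with overlap. Neither gene was called between the strains in any gland.

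Atf4, the transcription factor at the centre of the response, had 8569 ± 1727 in NOD-scid lacrimal gland and 6327 ± 523 in B6-scid lacrimal gland. It read 7324, 10524, 9504 and 6926 in the NOD-scid mice, against 6905, 5800, 6546, 5746 and 6640 in the B6-scid mice. All 4 NOD-scid values were above the B6-scid ones, though the lowest NOD-scid value barely exceeded the highest B6-scid value. The difference of 0.42 (SE 0.18) was not called (adjusted p = 0.324). Over both strains Atf4 was 0.59 higher in lacrimal than in submandibular gland (SE 0.10, adjusted p = 2.6e-05) and in pancreas it was lower than in submandibular gland, with a difference of -0.77 (SE 0.10, adjusted p = 3.9e-08). ATF4 is controlled largely at translation, and its protein was not measured here.

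Ddit3 encodes CHOP, a transcription factor induced by ATF4 in prolonged stress. It was low everywhere, with group means from 116 to 341, and was called in 1 comparison, pancreas against submandibular gland, where it was lower in pancreas (-0.80, SE 0.24, adjusted p = 0.00514). Trib3 encodes a pseudokinase that binds ATF4 and CHOP and dampens them. It had 77.6 ± 63.9 in NOD-scid pancreas and 58.3 ± 18.1 in B6-scid pancreas, where 9 of 10 mice were below 100, and so did not enter the pancreas strain test. In submandibular gland its group means were 530 to 808, and it was lower in pancreas without overlap (limma, adjusted p = 5.3e-15). It entered this test through the other glands, where it was high, so the adjusted p is a description. With pancreas signals under 100 set to 100, Trib3 was at least 6.14-fold lower in pancreas. The fitted difference of -2.88 (SE 0.19) depends on the constant added to the signals and ran from -3.29 to -2.21 over 50 alternatives.

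Nupr1 is a small stress-induced chromatin protein, first described in inflamed pancreas of the rat. Its probe set (160108_at) read 9080, 11917, 9296, 9190 and 15210 in NOD-scid submandibular glands of 15 weeks, against 45981, 29883, 24976, 44106 and 61400 at 9 weeks. The ages did not overlap, and the change was -1.87 (SE 0.29). In B6-scid glands it read 25138, 9108, 14386, 11084 and 9460 at 15 weeks, against 25419, 13105, 14619, 24774 and 18648 at 9 weeks, with overlap and a change of -0.54 (SE 0.29). The changes of Nupr1 were negative and those of Gpt2 positive in both strains, each without overlap in 1 strain, and the difference between the strains' changes was -1.33 (SE 0.41) for Nupr1. No p is given for these.

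Among the 17 probe sets, Nupr1 was the 1 lower without overlap at 15 weeks in NOD-scid gland and none was higher, while 1.77% and 2.29% of all probe sets were lower and higher in this way. In B6-scid gland Gpt2 was the 1 higher and none was lower, against 2.29% and 1.75% of all probe sets. The median change of the 17 was -0.02 in NOD-scid gland and 0.22 in B6-scid gland, and -0.03 and -0.02 over all probe sets. Gpt2 was also the 1 higher without overlap in NOD-scid gland at 9 weeks, where 1.08% of all probe sets were higher and 1.02% lower. At 15 weeks none of the 17 was higher or lower without overlap between the strains, against 1.28% and 1.54% of all probe sets. Nothing is read from these counts, because the choice of genes used the contrast.

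Beside these changes, other measures also differed by age. The acinar sum was 3189 to 10053 in NOD-scid glands of 15 weeks against 11370 to 179847 at 9 weeks, and 2556 to 3649 in B6-scid glands of 15 weeks against 4759 to 16916 at 9 weeks, without overlap in either strain. In NOD-scid glands the sums of parotid markers (86580 to 118380 at 15 weeks against 145123 to 266370 at 9 weeks), lacrimal markers (75899 to 158505 against 163180 to 270210) and granular duct markers (given above) were also lower at 15 weeks without overlap. In B6-scid glands these 3 sums overlapped between the ages. The granular duct sum does not stand for each of its genes. Of the 5 granular duct genes, 2 were lower at 15 weeks without overlap in NOD-scid glands, and the median change was 0.41. In B6-scid glands 1 was lower without overlap, and the median change was 0.61. All 9 acinar genes reached 100 in at least 1 mouse of each submandibular group. On design B, which carries Gpt2 and Chac1, samples of a group correlated at 0.860 (NOD-scid) and 0.867 (B6-scid) on average at 15 weeks, and at 0.756 (NOD-scid) and 0.783 (B6-scid) at 9 weeks. Their part in the age changes was not tested.

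**Figure D2:**
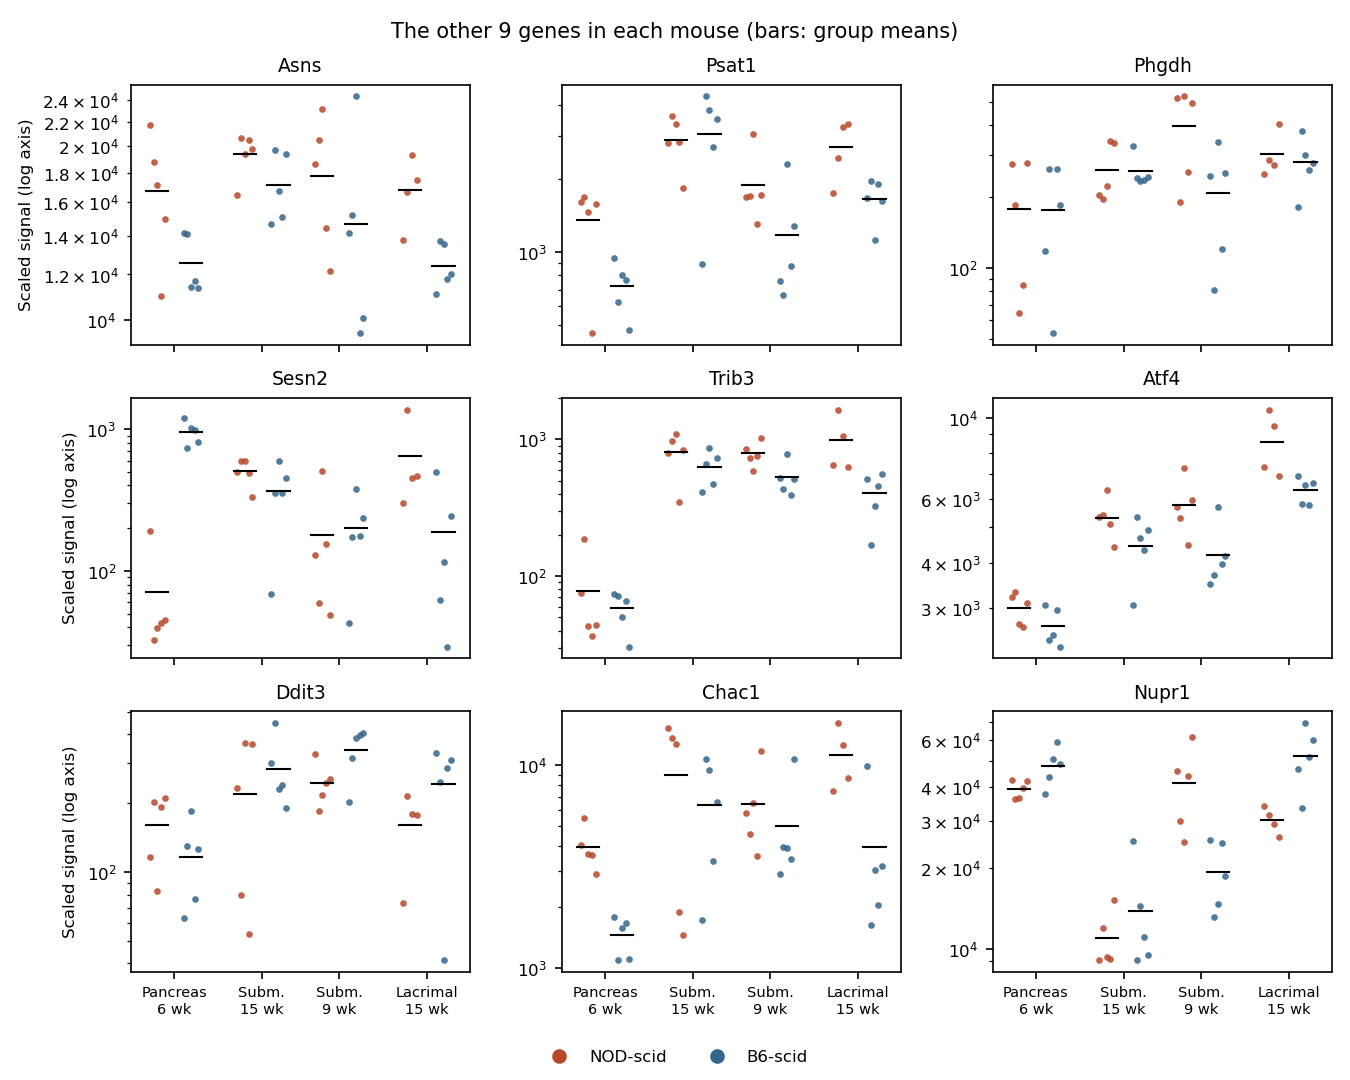
Scaled signal (vertical axes, log scale) of the other 9 genes in each mouse of the 8 groups (horizontal axis), with NOD-scid left of B6-scid. Points are mice and lines are group means. Nupr1 is low in the submandibular glands of 15 weeks, Trib3 and Atf4 are low in pancreas, and Sesn2 separates the strains in pancreas.

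In pancreas, NOD-scid mice had more Chac1 and less Sesn2 than B6-scid mice. Chac1 encodes an enzyme that degrades glutathione and is a strong ATF4 target. Its signals were 4045, 5484, 3643, 3625 and 2894 in NOD-scid pancreas, against 1772, 1092, 1574, 1669 and 1109 in B6-scid pancreas. All NOD-scid values were above all B6-scid values, and the difference was 1.43 (SE 0.22, fold 2.69, limma, adjusted p = 0.0165). The call ended with the Actb ratio in the fit (1.35, adjusted p = 0.151) and in 1 fit of all 39 samples (1.43, adjusted p = 0.334), with the difference about as large, and the adjusted p ranged from 0.00107 to 0.334 over 19 alternatives. The Actb ratio was 1.99 to 2.08 in NOD-scid pancreas and 1.86 to 3.08 in B6-scid pancreas.

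Sesn2 encodes Sestrin 2, which senses leucine and restrains the growth kinase complex mTORC1. It read 191, 32.7, 39.5, 43.2 and 45.0 in NOD-scid pancreas, against 1188, 736, 1021, 983 and 817 in B6-scid pancreas. Of the NOD-scid mice 4 were below 100, and the highest was well below every B6-scid mouse. With signals under 100 set to 100, Sesn2 was at least 8.22-fold lower in NOD-scid pancreas, a bound that was not tested. The fitted difference was -3.42 (SE 0.37, limma, adjusted p = 0.000768), and it was called under all 19 alternatives. That difference depends on the constant added, with a range of -3.89 to -2.68 over those alternatives. Sesn2 entered the fit through the B6-scid mice, where it was high, so the adjusted p and these calls are descriptions. The probe set's name (165600_i_at) marks it as one with fewer probes than the design asked for. The same probe set read 303 to 1370 in NOD-scid lacrimal gland. Between the ages of submandibular gland Sesn2 gave 1.68 (SE 0.53) in NOD-scid and 0.74 (SE 0.53) in B6-scid mice, untested and with overlap in both. In pancreas Chac1 and Sesn2 were the members called, of 16 probe sets tested, where 0.647% of all 28733 were called (0.237% as higher, 0.411% as lower). Erythrocyte transcripts also differed, and the sum of 3 was 6245 to 13350 in NOD-scid pancreas and 3225 to 5344 in B6-scid pancreas, and its part in these differences was not tested. Gpt2 (0.54, adjusted p = 0.739), Asns (0.39, adjusted p = 0.54), Psat1 (0.79, adjusted p = 0.463) and Nupr1 (-0.27, adjusted p = 0.602) were not called in pancreas, and the strains overlapped in each.

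Other genes of the response in pancreas did not move as 1 block. Of the ATF4-linked transcription factors and feedback genes, 1 of 14 tested was called, Cth, the enzyme that makes cysteine from cystathionine, which was 1.37 higher in NOD-scid pancreas (SE 0.23, adjusted p = 0.022). Its probe set is of a kind that can read related sequences, and a second one gave 0.42 (SE 0.40, adjusted p = 0.797). Of the serine, glycine and one-carbon enzymes, 1 of 9 was called, Mthfd2 of mitochondrial folate metabolism, with 6978 ± 1936 in NOD-scid and 2867 ± 454 in B6-scid pancreas (1.24, SE 0.21, adjusted p = 0.0245). Of 11 amino acid transporters, Slc7a5 and Slc3a2 were called higher, and together they form the LAT1 exchanger for leucine and other large neutral amino acids.

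Slc7a5 had 4766 ± 735 in NOD-scid and 2294 ± 292 in B6-scid pancreas (1.04, SE 0.16, adjusted p = 0.0131). Slc3a2 had 10049 ± 1722 in NOD-scid and 5248 ± 941 in B6-scid pancreas (0.93, SE 0.18, adjusted p = 0.0448). A second Slc3a2 probe set gave 0.64 (SE 0.55) and was not called. In each of Cth, Mthfd2, Slc7a5 and Slc3a2 every NOD-scid mouse was above every B6-scid mouse. Over 19 alternatives the call was lost in 2 for Slc7a5, 8 for Mthfd2, 9 for Cth and 14 for Slc3a2, with the direction kept.

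Among 18 aminoacyl-tRNA synthetases, which load amino acids onto tRNA, Rars was higher in NOD-scid pancreas (1.09, SE 0.20, adjusted p = 0.0405), while Vars (-1.79, SE 0.24, adjusted p = 0.00677) and Wars (-1.18, SE 0.16, adjusted p = 0.00777) were lower. Vars had 661 ± 192 in NOD-scid and 2295 ± 411 in B6-scid pancreas. The other Wars probe sets gave -2.08 (SE 0.47), -0.96 (SE 0.29), -0.09 (SE 0.53) and 0.16 (SE 0.35), and none was called. Rars lost its call in 13 of 19 alternatives and Vars and Wars in 2 each. Of 17 folding genes of the endoplasmic reticulum, Creld2 and Manf were lower in NOD-scid pancreas and none was higher, but Creld2 lost its call in 13 of 19 alternatives and Manf in 15. The median difference was 0.30 over the transporters, 0.26 over the synthetases, 0.08 over the ATF4-linked genes, 0.14 over the one-carbon enzymes and -0.32 over the folding genes, against 0.02 over all probe sets. None was called by limma among 11 eIF2 kinases and subunits (0 at an unadjusted p under 0.05, median 0.09), 9 transaminases and glutamate enzymes (1, median 0.16) and 15 genes of the glucocorticoid and fasting response (6, median 0.02), where 10% of all probe sets had an unadjusted p under 0.05.

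**Figure D3:**
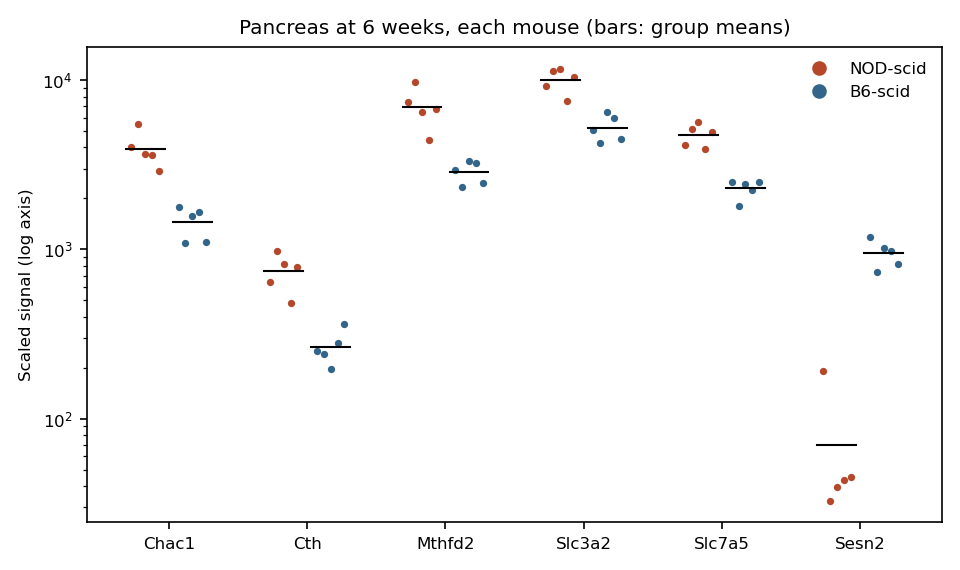
Scaled signal (vertical axis, log scale) of Chac1, Cth, Mthfd2, Slc3a2, Slc7a5 and Sesn2 (horizontal axis) in each of 10 pancreas samples, with NOD-scid left of B6-scid. Points are mice and lines are group means. The strains do not overlap in any of these 6 genes, and among them Sesn2 alone is lower in NOD-scid pancreas. Vars, Wars, Creld2 and Manf, called lower there, and Rars, called higher, are not shown.

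In lacrimal gland, none of the 16 member probe sets tested was called between the strains by limma, where 1.19% of all 27686 probe sets were called (0.524% as higher, 0.668% as lower). An unadjusted p under 0.05 was reached by 10 of the 16, and by 13.9% of all probe sets. Chac1 read 7505, 16181, 12550 and 8693 in NOD-scid mice, against 9906, 1624, 3033, 2033 and 3175 in B6-scid mice. Only B6-scid sample 1 reached the NOD-scid range, and the difference was 1.75 (SE 0.49, adjusted p = 0.142). It was called without that sample and with an intensity trend and robust prior, and the adjusted p ranged from 0.0269 to 0.352 over 19 alternatives.

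Trib3 read 646, 1648, 1061 and 632 in NOD-scid lacrimal gland, against 511, 170, 324, 457 and 558 in B6-scid gland, without overlap (1.23, SE 0.38, adjusted p = 0.184). It was called in 1 of 19 alternatives, 1 fit of all 39 samples, and its adjusted p ranged from 0.0455 to 0.373 over them. Sesn2 read 303, 1370, 451 and 466 in NOD-scid gland, against 496, 62.1, 115, 29.2 and 244 in B6-scid gland, with overlap (1.81, SE 0.63, adjusted p = 0.233). Nupr1 ran the other way, with 33984, 31387, 29127 and 25986 in NOD-scid gland, against 46735, 33367, 69157, 51621 and 59653 in B6-scid gland (-0.76, SE 0.22, adjusted p = 0.16). The median over the 16 probe sets was 0.51, against 0.02 over all probe sets. The parotid sum was 1442 to 77034 in NOD-scid lacrimal gland, with a median of 2065, which lies below all B6-scid lacrimal samples. Without the 2 B6-scid samples high in parotid transcripts, which leaves a parotid difference, the differences were 1.41 for Chac1, 0.82 for Trib3, 1.48 for Sesn2 and -0.81 for Nupr1, and again no member was called. The acinar sum was 42028 to 58923 in NOD-scid lacrimal gland and 12694 to 27840 in B6-scid lacrimal gland. Of 7 acinar genes tested there, 1 was called higher, 2 were higher without overlap, and the median difference was 0.48. The sum of 3 erythrocyte transcripts was 6484 to 8874 in NOD-scid and 2586 to 4908 in B6-scid gland. The part of acinar, erythrocyte and parotid transcripts in the differences of the members was not tested.

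No gene of the other 7 lists was called in lacrimal gland by limma. An unadjusted p under 0.05 was reached there by 2 of 13 ATF4-linked genes, 1 of 9 one-carbon enzymes, 3 of 10 transporters, 4 of 19 synthetases, 5 of 10 transaminases and glutamate enzymes, 3 of 11 eIF2 kinases and subunits and 5 of 15 genes of the glucocorticoid and fasting response, against the 13.9% of all probe sets given above. Of the folding genes, 5 of 18 were higher in NOD-scid gland (Hspa5, Pdia4, Sdf2l1, Creld2 and Dnajc3), with a median difference of 0.66. The call was lost in 10 of 19 alternatives for Dnajc3, 6 for Pdia4, 2 for Sdf2l1 and 1 each for Hspa5 and Creld2. Without the 2 samples high in parotid transcripts Dnajc3 (0.86, adjusted p = 0.0906) and Sdf2l1 (1.40, adjusted p = 0.0751) were not called, and the other Dnajc3 probe sets tested gave -0.25 to 0.65, none called. Creld2 was 1.74 higher there (SE 0.25, adjusted p = 0.0102), and in pancreas it was lower (-0.76, SE 0.14, adjusted p = 0.0381). Hspa5 (BiP, a chaperone that binds unfolded proteins) was 1.24 higher in NOD-scid lacrimal gland (SE 0.16, adjusted p = 0.00731) and gave -0.71 in pancreas (SE 0.18, adjusted p = 0.148). The difference between lacrimal gland and pancreas was not tested. In submandibular gland, averaged over ages, Slc38a1, a glutamine transporter, was 0.79 higher (SE 0.18, adjusted p = 0.0219) and Xbp1, a transcription factor of the folding response, was lower in NOD-scid mice (-0.67, SE 0.14, adjusted p = 0.00861). Without those same submandibular samples of 9 weeks Slc38a1 was not called, with a difference about as large (0.75, adjusted p = 0.062).

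**Figure D4:**
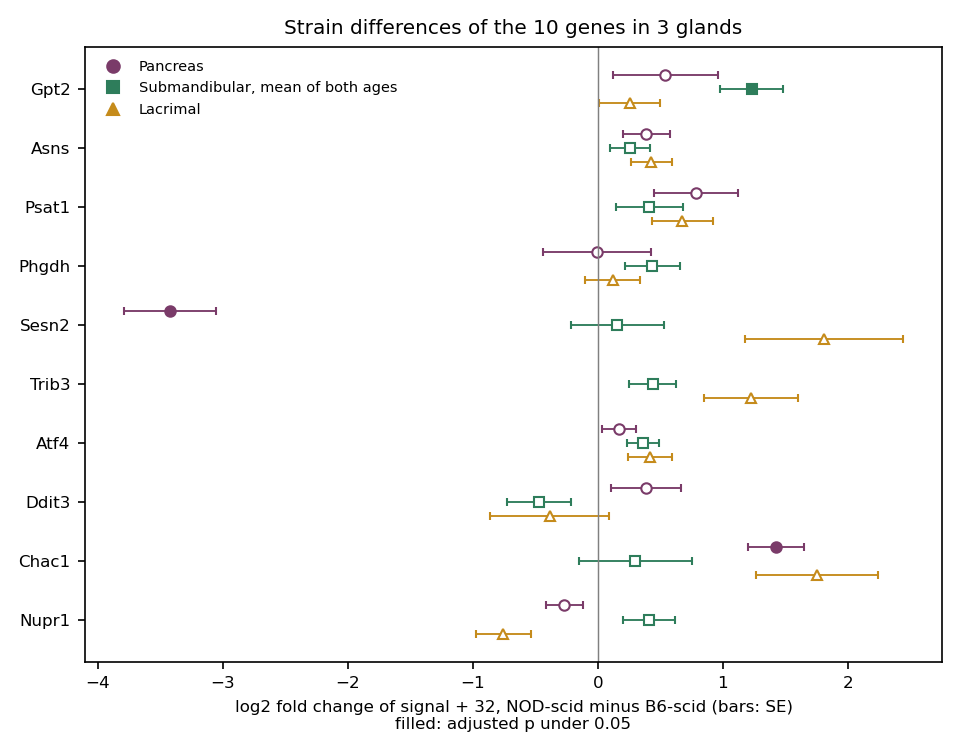
Log2 fold change of signal + 32, NOD-scid minus B6-scid (horizontal axis), for the 10 genes (vertical axis) in pancreas, submandibular gland (mean of both ages) and lacrimal gland. Bars are the SE and filled points have an adjusted p under 0.05, which holds for Gpt2 in submandibular gland and for Chac1 and Sesn2 in pancreas. Trib3 was too low in pancreas to be tested.

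Whether the strain difference itself differed between lacrimal and submandibular gland was tested in 1 fit, with lacrimal gland of 15 weeks set against the mean of submandibular gland of 9 and 15 weeks. None of the 17 probe sets was called by limma, where 0.735% of all 34418 probe sets were called (0.317% as higher, 0.418% as lower). An unadjusted p under 0.05 was reached by 7 of the 17 and by 9.68% of all probe sets. Nupr1 came closest, at -1.16 (SE 0.31, adjusted p = 0.0745), and was called with an intensity trend and robust prior and when NOD-scid submandibular sample 3 of 9 weeks, B6-scid submandibular sample 1 of 15 weeks or B6-scid lacrimal sample 2 was left out. For Gpt2 it was -0.98 (SE 0.46, adjusted p = 0.477). Against submandibular gland of 15 weeks alone, the matched age, the value was -0.50 for Nupr1 (SE 0.36, adjusted p = 0.838) and -0.01 for Gpt2 (SE 0.52), and again no member was called.

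Between glands, with both strains and, for submandibular gland, both ages averaged, 10 of the 17 probe sets were called between pancreas and submandibular gland, 3 higher and 7 lower, where 46.5% of all 34418 probe sets were called (23.1% as higher, 23.5% as lower). By gene, 7 were lower in pancreas (Trib3, Gpt2, Chac1, Psat1, Ddit3, Atf4 and Phgdh) and Nupr1 was 1.27 higher (SE 0.15, adjusted p = 7.8e-09). The other 3 Psat1 probe sets were not called. Trib3 entered this comparison through the other glands. The median over the 17 was -0.38, against -0.01 over all probe sets. Sesn2 differed by 0.09 (SE 0.32), an average of high B6-scid and low NOD-scid pancreas. The pancreas came from mice of 6 weeks, so gland and age cannot be told apart. Between lacrimal and submandibular gland 2 of the 17 were called, Atf4 and Nupr1, both higher in lacrimal gland, where 25.9% of all probe sets were called (12.9% as higher, 13% as lower). Nupr1 was 1.13 higher there (SE 0.16, adjusted p = 6.9e-07), and 1.73 higher (SE 0.18) than in submandibular gland of 15 weeks alone, where Atf4 gave 0.60 (SE 0.12) and both were called. At 9 weeks NOD-scid submandibular gland had a Nupr1 mean of 41269, above the 30121 of NOD-scid lacrimal gland and the 39366 of NOD-scid pancreas.

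**Figure D5:**
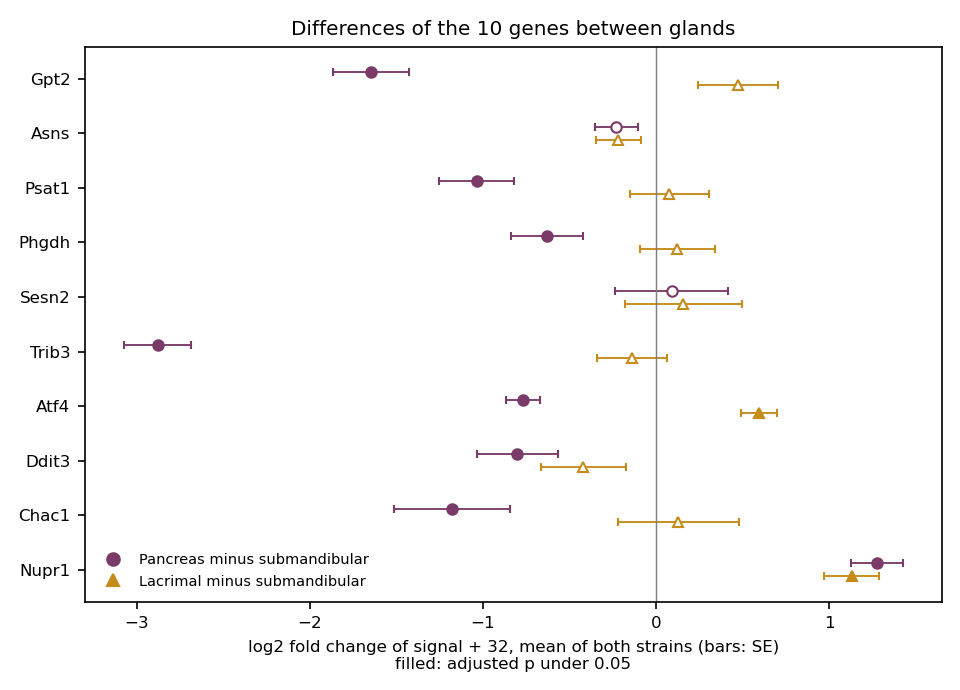
Log2 fold change of signal + 32 (horizontal axis) of the 10 genes (vertical axis) in pancreas minus submandibular gland and in lacrimal minus submandibular gland, averaged over strains. Bars are the SE and filled points have an adjusted p under 0.05. Nupr1 is the 1 gene called higher in both comparisons. Trib3 was under a signal of 100 in 9 of 10 pancreas samples, so its point at -2.88 depends on the constant added.

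Within groups, some members varied together over the 39 samples after each group's mean was taken off. Pearson's r was 0.73 for Psat1 with Atf4, 0.68 for Sesn2 with Atf4, 0.60 for Atf4 with Chac1, 0.56 for Asns with Psat1 and 0.56 for Trib3 with Chac1. For Gpt2, r ran from -0.45 with Nupr1 to 0.34 with Asns. Low r was not particular to Gpt2. For Phgdh it ran from -0.20 with Chac1 to 0.29 with Asns, and for Ddit3 from -0.16 with Asns to 0.31 with Trib3. Nupr1 gave -0.56 with Psat1 and -0.49 with Asns. The samples share arrays and RNA across genes, so these r are descriptions. Chac1 varied widely within the submandibular groups of 15 weeks, with 15349, 13622, 12746, 1877 and 1446 in NOD-scid mice and 1727, 10755, 9486, 3359 and 6612 in B6-scid mice.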

How the data were processed

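The deposited values were linear signal intensities, 1 per probe set and array, made with MAS5 per the submitters' processing notes. Genome build, detection calls and scan dates are not given in the sources used here. Arrays were rescaled to a 2% trimmed mean of 500. Gene names came from the platform annotation, updated through RefSeq (GRCm38.p6), and probe sets with several symbols were not used.

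Log2(signal + 32) was fitted with limma 3.58.1 in R 4.3.3, 1 mean per group, for probe sets with a signal of at least 100 on at least 4 arrays of a fit. Each array design had its own fit and prior variance. That choice was made after this and 1 joint prior had both been run, and the joint prior gave the same calls of members but not those of Slc3a2, Rars, Creld2 and Manf in pancreas and Dnajc3 in lacrimal gland, which rest on that choice. P-values were adjusted over all 3 designs. A fold change on this scale understates the change of low signals. Where a gene had several probe sets, the named one lay on design A before B before C and had the highest mean.

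The members and the 8 lists of related genes were chosen with earlier results of these data known. From each list, up to 4 genes with the smallest p in a tested comparison could be named, beside the 8 most like Gpt2 by each measure; a 5th folding gene, and Gpt, were named after their values were seen. The labels number the replicates, and each was taken as 1 mouse. Their number limits the precision. Lacrimal samples and submandibular samples of 15 weeks carry the same numbers within a strain. Whether these came from the same mice is not stated, and the tests between glands treat them as separate mice. Atf4 and Nupr1 kept their calls between these 2 glands with a random block for mice of equal strain, age and number. Whether equal replicate numbers pair the samples was checked on deviations from group means. No pair correlated over 0.1, and the numbers were not used as pairs, but this check cannot exclude a weak pairing. At 9 weeks in submandibular gland, 4 of 5 NOD-scid samples were most like the B6-scid sample of their own number. This held for 3 of 4 in lacrimal gland, 2 of 5 in pancreas and 1 of 5 in submandibular gland of 15 weeks. Alternatives were other pseudocounts, quantile normalization, no filter, other variance priors, a replicate block, the Actb ratio, 1 fit of all samples and leaving out samples.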

Additional observations from a re-analysis of the deposited data

Results flagged for a closer look

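The limit used for an outlying mouse is passed by about 1 in 20 groups of normally distributed values. Signals here were linear and the combinations share mice, so the count below is not read as an excess. Of 80 combinations of gene and group, 10 held a mouse whose gap to its nearest neighbour was large against the group's range. In NOD-scid pancreas these were Psat1 in sample 4 (463, the others 1451 to 1685), Sesn2 in sample 1 (191, the others 32.7 to 45.0) and Trib3 in sample 2 (189, the others 36.7 to 76.0). In NOD-scid submandibular gland of 9 weeks, sample 3 stood out for both Psat1 (3049, the others 1295 to 1711) and Sesn2 (510, the others 48.7 to 153). In B6-scid submandibular gland, Phgdh was high in sample 1 of 15 weeks (328, the others 233 to 243) and Chac1 in sample 5 of 9 weeks (10741, the others 2892 to 3966). In lacrimal gland, Sesn2 was high in NOD-scid sample 2 (1370, the others 303 to 466), Ddit3 was low in B6-scid sample 3 (41.4, the others 249 to 333) and Chac1 was high in B6-scid sample 1 (9906, the others 1624 to 3175).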

How the results depend on the processing

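In pancreas the strain count of 2 member probe sets fell to 1 with a replicate block, with the Actb ratio in the fit and in 1 fit of all 39 samples, each time Sesn2, and was 2 to 3 when single mice were left out. The third was Psat1. Sesn2 passed the filter of the pancreas fit through the B6-scid mice, so its calls there are descriptions. In lacrimal gland the count of 0 became 1 with an intensity trend and robust prior and in 1 fit of all 39 samples, and was 0 to 1 when single mice were left out. For the difference between lacrimal and submandibular gland the count of 0 became 1 with the trend and robust prior, and was 0 to 1 without single mice. Without single mice the counts were 1 in submandibular gland, 10 to 11 between pancreas and submandibular gland and 2 between lacrimal and submandibular gland. Without single mice the age change of Gpt2 was 0.43 to 0.75 in NOD-scid gland and 2.24 to 2.77 in B6-scid gland, and with the Actb ratio it was 1.99 in B6-scid gland. Over all probe sets, calls ranged from 60 to 345 in pancreas, against 186, from 35 to 678 in lacrimal gland, against 330, and from 132 to 306 for the difference between glands, against 253. The causes were not tested. Samples of equal replicate number correlated little (mean r of -0.022 to 0.052), which cannot exclude a weak pairing. The block left Chac1 in pancreas uncalled (limma, adjusted p = 0.116) and changed no other call of a member. In pancreas the replicate block and the Actb ratio each also ended the calls of Cth, Mthfd2, Slc3a2, Slc7a5, Rars, Vars, Wars, Creld2 and Manf, and the block those of the 5 folding genes in lacrimal gland. The differences in pancreas were the same with the block, and with the Actb ratio they were 1.38 for Cth, 1.32 for Mthfd2, 1.08 for Slc3a2, 1.31 for Rars, -1.14 for Wars and -0.56 for Manf. Submandibular gland of 15 weeks alone, chosen after seeing the data, left the counts against lacrimal gland at 2 and 0. Depth is not defined for arrays, and members near a signal of 100 (Trib3 in pancreas, Ddit3, Phgdh and Sesn2) are limited by background.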
